A study of Zea mays with 109 samples.

Results

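Of 61936 circular RNAs (circRNAs) listed for maize, 367 (0.593%) had reads in at least 4 of 11 leaf libraries and none in any of 6 inflorescence libraries. These leaf circRNAs absent from inflorescence, called members here, were chosen by those read counts, so their difference between leaf and inflorescence is a description and was not tested. They made up 9.95% of the 3690 circRNAs read in at least 4 leaf libraries. A total of 3323 circRNAs read in at least 4 leaf libraries and in at least 1 inflorescence library served as the compared set.

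A circRNA made of exons arises when the splicing machinery joins the end of an exon to a site upstream of it. This leaves a closed ring without free ends. The ring is recognised in sequencing by reads that cross this back-splice junction. Without free ends circRNAs resist exonucleases, and in plants many have been found to be present in some organs and not in others. Leaf blades are photosynthetic organs, whereas the ear and the tassel are the female and the male inflorescence of maize.

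The tissues came from greenhouse plants of the inbred line B73 without special treatment, with days of 12 h light, nights of 12 h and 25 °C. Each tissue was extracted in 3 replicates of 5 to 10 plants whose RNA was pooled, so 1 library stood for 1 tissue and the spread given below is between tissues. The 11 leaf libraries were the first leaf, the third leaf and the topmost leaf at stage V3, the tip and the base of the stage 2 leaf at V5, the ear leaf and the husk leaf, with separate libraries carrying the letters L and N for the first leaf, the topmost leaf, the tip and the base. The other libraries were SAM, which usually stands for shoot apical meristem, at V1, V3 and V4, the primary root at 6DAS and V1, the internode and the stem at V6, the embryo and the endosperm at R2, and, as inflorescence, the 2mm, 5mm and 1cm ear, the 2mm and 1cm tassel and a library named Inflorescence. The labels do not explain the letters L and N. The circRNA identifiers are running numbers that the files pair with no gene name, position, strand or sequence, so neither the labelled tissues nor a host gene could be checked from the circRNA data.

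The deposited circRNA signal is a number of whole reads divided by a library number, as set out under the processing, and recovered reads are given below beside the signal. Leaf libraries held 17289 to 38740 circRNA reads, against 41661 to 107480 in inflorescence libraries. By circRNA reads the inflorescence libraries were thus the deeper ones, whereas the library numbers that scale the signal summed to 211478938 in leaf and 155681132 in inflorescence. Over the 461047 inflorescence reads, a count of 0 allows a share of up to 0.000651% (3 reads), or a pooled signal of 19.3. How many members lay above this limit depended on the scale. By signal, the pooled leaf level of 347 of the 367 members lay above it, and that of 51 members at least 10-fold above it. By share of circRNA reads all 367 members lay above it, the lowest at 0.00141% of the leaf reads, and 118 members at least 10-fold. That all 367 did so by share was fixed by the choice. The fewest leaf reads it allows, 4, already give this lowest share. Lying above the limit is no test of a difference. For members whose leaf signal lay below the limit, a difference from inflorescence in signal was not detectable at this depth. These limits, and the intervals below, cover counting error only.

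Most members had few reads. The sum over the 11 leaf libraries was 13130 reads, with a median of 12 reads per member, quartiles of 7 and 22, and a range of 4 to 3076. At least 100 leaf reads were found for 16 members, and fewer than 10 for 147. The compared set had a median of 19 leaf reads. A single member, ZmCirc024928, held 23.4% of all member reads in leaf and 1.09% of all leaf circRNA reads. The highest 3 members held 34.5% and the highest 10 members 47.5% of the member reads.

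Members were unevenly spread over the leaf libraries. Exactly 4 leaf libraries, the fewest the choice allowed, had reads in 156 members, and 26 members were read in all 11. Among circRNAs read in exactly 4 leaf libraries, 18.75% had no inflorescence read. In exactly 6 the share was 11.2%, and in all 11 it was 3.56%. Of the 26 members read in every leaf library, 10 had no read in SAM, root, stem, embryo or endosperm either.

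**Figure D1:**
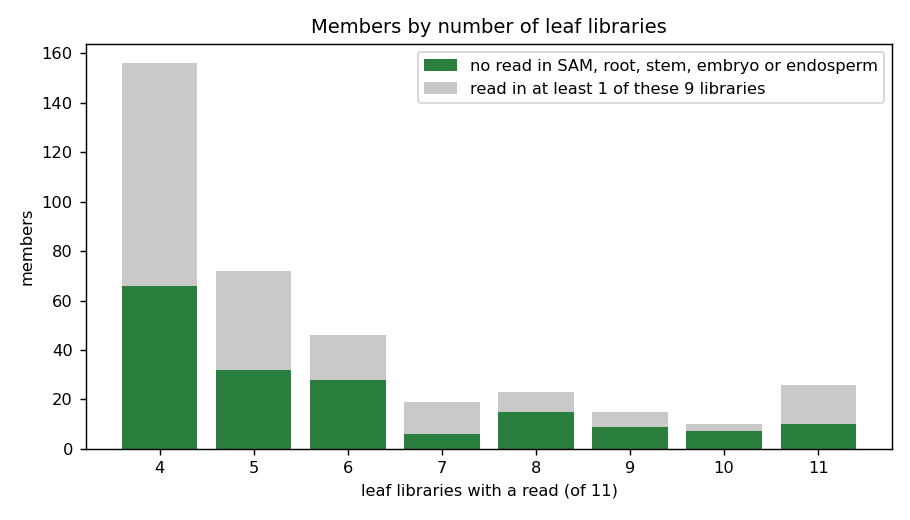
Number of members (vertical axis) by the number of leaf libraries with at least 1 read (horizontal axis), split into members without (green) and with (grey) a read in the 9 SAM, root, stem, embryo and endosperm libraries. The bar at 4 libraries holds 156 members and the bar at 11 libraries holds 26.

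ZmCirc024928 had more reads than any other member in each of the 11 leaf libraries. It had 525 reads in the ear leaf, 368 in husk and 181 in the third leaf. It had 305 reads in the tip with the letter L and 348 in the tip with N, and in the base it had 229 (L) and 144 (N). In the first leaf it had 270 reads (L) and 277 (N), and in the topmost leaf 231 (L) and 198 (N). Its mean leaf signal was 14805 ± 6016 (SD, n = 11). The ear leaf was the highest and the third leaf the lowest by signal, and the L and N libraries of the topmost leaf differed least. It had 0 reads in every library of the other organs and of inflorescence, so its pooled leaf signal was at least 755-fold higher than the inflorescence limit.

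ZmCirc041145 was the second member by mean leaf signal, at 4738 ± 3465 (SD, n = 11). It had 195 reads in each of the first leaf libraries and 128 in the third leaf. The topmost leaf had 101 (L) and 57 (N), the tip 57 (L) and 84 (N), the base 66 (L) and 45 (N), the ear leaf 42 and the husk leaf 14 reads. The first leaf was thus high and the husk leaf low. Outside leaf only 4 reads were found, all in the primary root at V1.

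ZmCirc024913 had a mean leaf signal of 2235 ± 1364 (SD, n = 11) and was the third member. Its reads were 80 in the base with L and 15 in the base with N, 46 in the tip with L and 13 in the tip with N, and 37 in the first leaf with L and 5 with N. The topmost leaf had 69 (L) and 66 (N), the ear leaf 72, the husk leaf 39 and the third leaf 31. It was therefore higher in L than in N by reads at all 4 positions, although in the topmost leaf the signal was higher in N.

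Of the other 7 members in the highest 10, ZmCirc052986, ZmCirc041253, ZmCirc024926 and ZmCirc000246 had no read outside leaf. ZmCirc052986 had a leaf signal between 291.8 in the husk leaf and 2579 in the tip with N, with a median of 1409. ZmCirc041253 had a median of 1329 (729 to 2531) and varied least of these 4 in proportion to its mean. ZmCirc000246 was highest in the husk leaf with 49 reads, and it had 2 reads in the base with L and 3 in the base with N. Outside leaf ZmCirc041256 had 8 reads and ZmCirc049142 had 11. ZmCirc021703 had 48 reads outside leaf, of which 47 were in root.

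**Figure D2:**
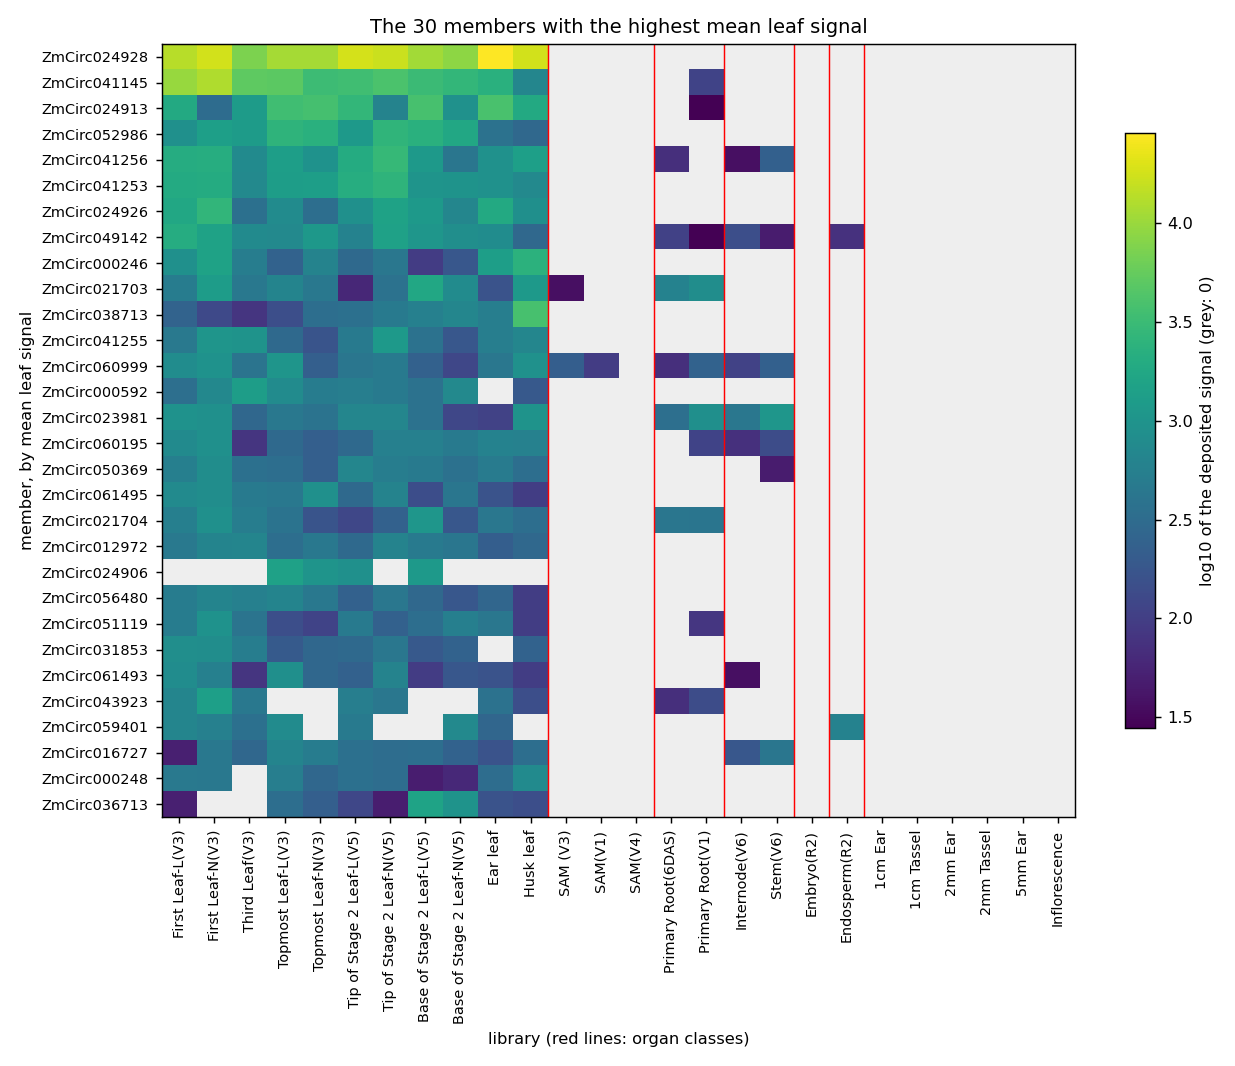
The 30 members with the highest mean leaf signal (rows) in all 26 libraries (columns, organ classes divided by red lines), coloured by the log10 of the deposited signal, with grey for 0. All inflorescence columns are grey by the choice of members, and ZmCirc024928 is grey in every column outside leaf.

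Members took 4.73% ± 1.00 (SD, n = 11) of the circRNA reads of a leaf library. The share was highest in the tip with the letter L, at 5.89% (95% exact interval 5.55% to 6.26%), followed by the ear leaf at 5.87% and the third leaf at 5.75%. It was lowest in the husk leaf, at 3.18% (3.01% to 3.36%). In the tip it was 5.89% (L) and 5.35% (N), against 4.05% (L) and 3.53% (N) in the base. In the first leaf it was 5.28% (L) and 5.22% (N), against 3.99% (L) and 3.95% (N) in the topmost leaf. Without ZmCirc024928 the shares were 4.13% (L) and 4.08% (N) in the tip, 3.23% (L) and 2.73% (N) in the base, 4.40% (L) and 4.34% (N) in the first leaf and 3.22% (L) and 3.03% (N) in the topmost leaf. The ear leaf then had 3.39%, since this member made up 42.3% of its member reads, the third leaf had 4.81%, the highest of the 11, and the husk leaf 2.23%, so the order of the single leaves rested on this member. The tip lay above the base and the first leaf above the topmost leaf in both letters, with and without this member. These shares were not tested, because the members were chosen on reads of the same libraries.

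The number of members read was largest in the first leaf, with 247 (L) and 250 (N), and smallest in the base with N, with 120. It was 188 (L) and 233 (N) in the tip, 179 in the base with L, 202 (L) and 147 (N) in the topmost leaf, 185 in the third leaf, 173 in the ear leaf and 174 in the husk leaf. These counts moved with depth. At the depth of the smallest library, 17289 reads, the expected counts were 204 (L) and 211 (N) in the first leaf, 188 (L) and 200.1 (N) in the tip, 148 (L) and 119 (N) in the base, 162 (L) and 137 (N) in the topmost leaf, 179 in the third leaf, 162 in the ear leaf and 125 in the husk leaf. The first leaf and the tip stayed above the base, the topmost leaf and the husk leaf at equal depth.

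**Figure D3:**
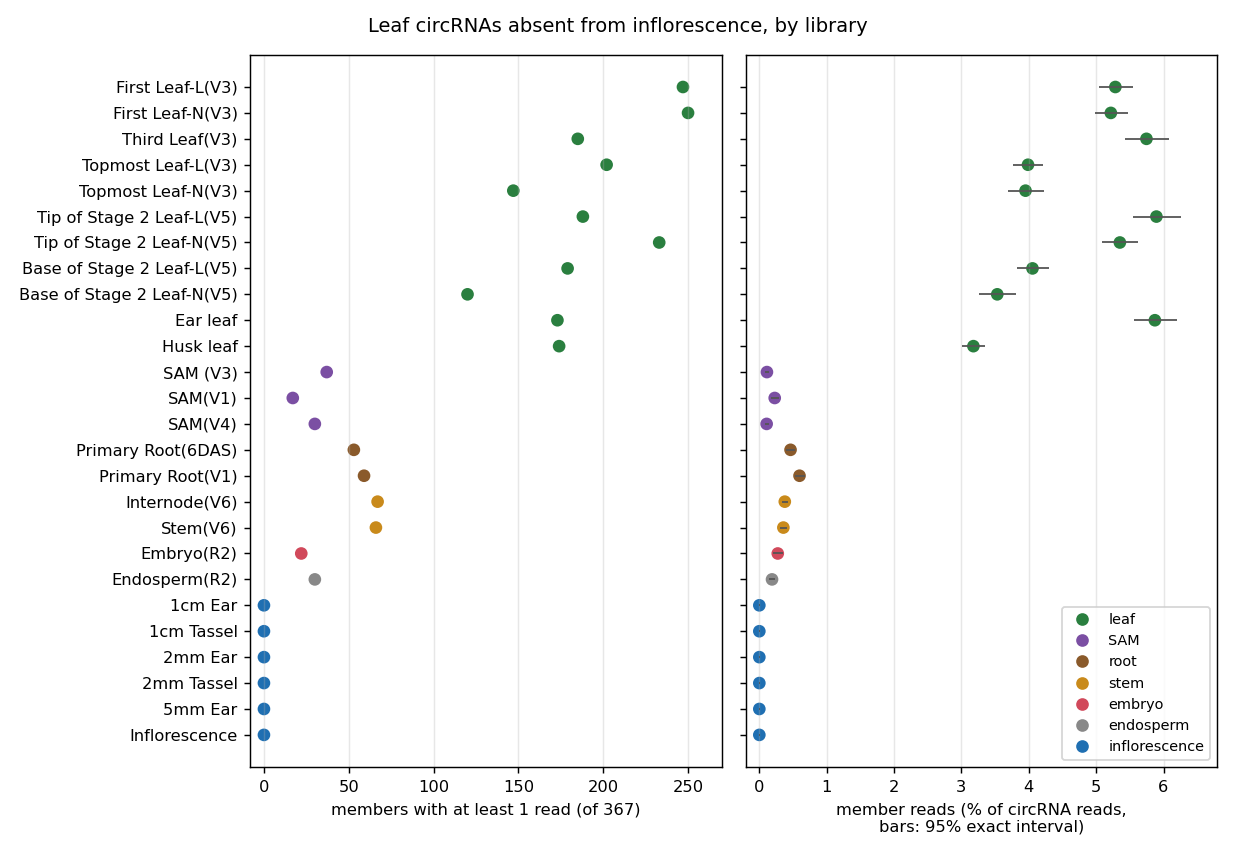
For each of the 26 libraries (rows, coloured by organ), the number of members with at least 1 read (left) and their share of the library's circRNA reads in percent with a 95% exact interval (right). By the choice of members, which raises the leaf shares, leaf libraries lie between 3.18% and 5.89%, and every other library lies at or below 0.597%, with inflorescence at 0.

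With the letters of a position merged, 316 members were read in the first leaf, 293 in the tip, 244 in the topmost leaf, 222 in the base, 185 in the third leaf, 174 in husk leaf and 173 in ear leaf tissue. The first leaf, the tip, the topmost leaf and the base had 2 libraries each, the other positions 1. All 7 positions had reads of 37 members, while 96 members were read at 3 positions or fewer. By mean signal, the first leaf was the highest position for 120 members, the ear leaf for 62, the husk leaf for 53 and the tip for 46. The third leaf was highest for 36, the topmost leaf for 28 and the base for 22. This order rests on the deposited scale and has no count over all circRNAs beside it. Of the leaf libraries, the first leaf with N had the largest summed circRNA signal (2030675) and the third leaf the smallest (781782). By single library, the first leaf with N was the highest for 109 members. Reads in the tip and not in the base were found for 121 members, and reads in the base and not in the tip for 50. In the same way 114 members were read in the first leaf and not in the topmost leaf, and 42 in the topmost leaf and not in the first. The libraries compared differed in depth, and no counts over all circRNAs stand beside these, so they are a description only. The husk leaf and the ear leaf shared 101 members, and 121 members were read in neither.

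Overlap between the letters of a position was partial. In the first leaf 181 members were read in both libraries, 73.3% of those in L and 72.4% of those in N. In the base 77 members were read in both, 43.0% of those in L and 64.2% of those in N. The tip shared 128 members (68.1% of L, 54.9% of N) and the topmost leaf 105 (52.0% of L, 71.4% of N). The deeper library of each pair held the larger number of members.

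A few members had most of their leaf signal in 1 library. More than 50% lay in a single library for 17 members, of which 7 had it in the first leaf with N and 3 in the husk leaf. The most abundant of them, ZmCirc038713, named here after its values were seen, was read in all 11 leaf libraries, with 79 of its 146 leaf reads in the husk leaf. Its other leaf libraries had 2 to 12 reads, so the husk leaf stood alone.

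The letters L and N were set against each other at the 4 positions that have both, with the position as a block, in limma on log2(signal + 27.7), where the number added is the smallest positive signal. Of the 367 members 360 passed the filter of reads in at least 2 of the 8 libraries. Limma called 0 members and 0 of 6655 circRNAs (0.0%) at a Benjamini-Hochberg adjusted p under 0.05, while 16 members and 165 circRNAs had an unadjusted p under 0.05. With edgeR's quasi-likelihood test on the recovered reads, 2 members were called, against 4 of all circRNAs (0.0601%). The median log2 difference of the members was 0.01 in limma, beside -0.03 over all circRNAs tested.

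The members called by edgeR and not by limma were ZmCirc024913 and ZmCirc024906. ZmCirc024913 had a mean signal of 2973 ± 853 in L and 1398 ± 1575 in N (SD, n = 4 each), a limma log2 difference of 1.62 (SE 0.456, adjusted p = 0.548) and an edgeR adjusted p of 4.39e-05. Its limma log2 difference was 1.34 without either first leaf library and 2.20 without either topmost leaf library. ZmCirc024906 had 24 reads in the base, 15 in the tip and 30 in the topmost leaf of the L libraries, against 18 in the topmost leaf of the N libraries, and 0 in every other leaf library. Its limma log2 difference was 2.75 (SE 1.09, adjusted p = 0.548) and its edgeR adjusted p 0.0268. The difference was 1.87 without either base library and 3.67 without either first leaf library, and it was 4.40 with 2.77 added to the signal and 1.22 with 277 added. The L and N values of both members overlapped. Outside the L libraries ZmCirc024906 was above 0 in 1 library of the fit, so it passed the filter only through L, and its direction is no finding of the test. ZmCirc024906 was also the most abundant member with exactly 4 leaf libraries, that is, just inside the choice.

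Tip and base of the stage 2 leaf were compared in the same fit. Limma called 0 members and 0 of the 6655 circRNAs (0.0%), with 50 members and 495 circRNAs at an unadjusted p under 0.05, and edgeR called 5 members, against 33 circRNAs (0.496%). The median log2 difference, tip minus base, was 0.43 for the 360 members tested and 0.00 over all circRNAs tested. It was above 0 for 208 members and below 0 for 134. The libraries held 17289 (L) and 27356 (N) circRNA reads in the tip, against 27918 (L) and 17867 (N) in the base.

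The 5 members called by edgeR between tip and base, named after their values were seen unless given above, did not share a direction. ZmCirc036709 had no read in either tip library, against 25 (L) and 12 (N) reads in the base, so its pooled signal in the tip was at least 12.5-fold lower, with 3 reads over both libraries as the limit here and in the folds of this kind below (edgeR adjusted p = 0.000437, limma adjusted p = 0.294). ZmCirc036713 had 2 (L) and 1 (N) reads in the tip, against 32 (L) and 16 (N) in the base, with a limma log2 difference of -3.57 (SE 0.606, adjusted p = 0.294; edgeR adjusted p = 0.000802). ZmCirc021703 also lay lower in the tip, with 1 (L) and 8 (N) reads, against 37 (L) and 13 (N) in the base (edgeR adjusted p = 0.0100, limma adjusted p = 0.488). In the other direction, ZmCirc041256 had 33 (L) and 61 (N) reads in the tip, against 24 (L) and 7 (N) in the base, with a limma log2 difference of 1.73 (SE 0.501, adjusted p = 0.361; edgeR adjusted p = 0.00369). For ZmCirc041256 the difference was 1.03 without the base with N and 2.43 without the base with L. ZmCirc043923 had 9 reads in each tip library and none in the base, so it was at least 5.94-fold higher in the tip (edgeR adjusted p = 0.0128, limma adjusted p = 0.294). The tip and base libraries did not overlap by signal in any of these 5 members, but they also did not overlap in 1357 of all 6655 circRNAs tested (20.4%), and these 5 were picked by their edgeR call.

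First and topmost leaf at V3 gave the largest number of member calls among the leaf comparisons. Limma again called 0 members and 0 of 6655 circRNAs (0.0%), with 77 members and 841 circRNAs at an unadjusted p under 0.05. EdgeR called 7 members, against 58 circRNAs (0.872%). With no filter limma called 10 members, against 52 of 19292 circRNAs (0.27%). With a filter of 4 libraries it called 1 member, ZmCirc043923 (limma adjusted p = 0.0455), against 12 of 2850 circRNAs (0.421%). The median log2 difference, first minus topmost, was 0.75 for the 360 members tested, beside 0.15 over all circRNAs tested in limma and 0.00 with edgeR's scaling, where the members' median was 0.62. In limma 258 members lay above 0 and 95 below, again with no such counts over all circRNAs beside them. As for tip and base, these medians are of unlike sets. The first leaf libraries held 30428 (L) and 31718 (N) circRNA reads, against 29939 (L) and 21412 (N) in the topmost leaf, and the part of this depth in the median was not tested.

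Among the 7 members called by edgeR, 4 were higher in the first leaf. ZmCirc041145 averaged a signal of 11186 ± 1836 in first leaf libraries and 4098 ± 1238 in topmost leaf libraries (SD, n = 2 each), a limma log2 difference of 1.47 (SE 0.282, adjusted p = 0.144; edgeR adjusted p = 0.0275). ZmCirc024926 had 35 (L) and 42 (N) reads in the first leaf, against 16 (L) and 6 (N) in the topmost leaf (edgeR adjusted p = 0.0476, limma adjusted p = 0.185). ZmCirc043923 had 13 (L) and 22 (N) first leaf reads and none in the topmost leaf, at least 12.5-fold higher (edgeR adjusted p = 0.000377, limma adjusted p = 0.144).

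ZmCirc043924, with the number next to it and named after its values were seen, had 12 (L) and 16 (N) first leaf reads and none in the topmost leaf, at least 10.03-fold higher (edgeR adjusted p = 0.0115, limma adjusted p = 0.144). The other 3 members were lower in the first leaf. ZmCirc024906 had no read there, against 30 (L) and 18 (N) in the topmost leaf, at least 14.9-fold lower (edgeR adjusted p = 1.02e-09, limma adjusted p = 0.172). ZmCirc024913 had 37 (L) and 5 (N) reads in the first leaf, against 69 (L) and 66 (N) in the topmost leaf (edgeR adjusted p = 3.39e-08, limma adjusted p = 0.211). ZmCirc052986 averaged 1161 ± 351 in first leaf libraries and 2411 ± 211 in topmost leaf libraries (SD, n = 2 each; edgeR adjusted p = 0.00472, limma adjusted p = 0.397). First and topmost leaf did not overlap by signal in any of these 7 members, picked by their edgeR call, nor in 1942 of all 6655 circRNAs tested (29.2%).

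**Figure D4:**
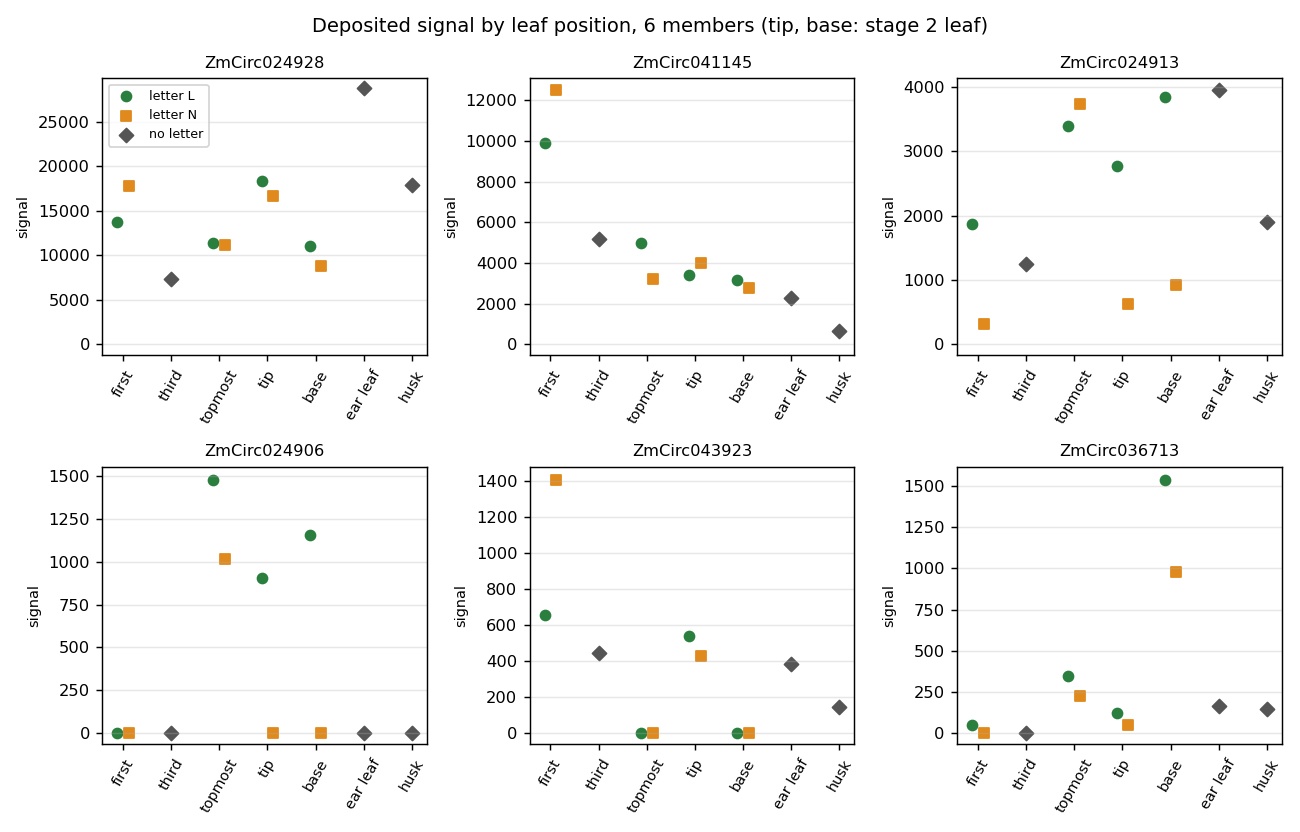
Deposited signal (vertical axes, linear, each with its own scale) of 6 members by leaf position (horizontal axes), with green circles for the letter L, orange squares for N and grey diamonds for leaves without a letter. ZmCirc041145 is highest in the first leaf, ZmCirc043923 is at 0 in the topmost leaf and the base, ZmCirc036713 is highest in the base, and ZmCirc024906 is above 0 in 4 libraries.

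Outside leaf and inflorescence, 173 members had no read in the 9 libraries of SAM, root, stem, embryo and endosperm, and 194 (52.9%) had at least 1. In the compared set 97.7% had at least 1 such read, and the median number of these libraries with reads was 1 for the members and 7 for the compared set. Of the members with such reads, 90 were read in exactly 1 library and 51 in at least 3, and no member was read in more than 6. In bulk tissue a difference between organs in the number of cells that hold a circRNA and one in its amount per cell cannot be told apart.

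By organ, reads were found for 71 members in SAM, 85 in root, 104 in stem and internode, 22 in embryo and 30 in endosperm. Embryo and endosperm are named by their column titles throughout, but these 2 columns stand in the opposite order to those of the other RNA tables, and whether the 2 libraries were exchanged was not tested. SAM had 3 libraries, root and stem 2 each, and embryo and endosperm 1 each. Root and stem shared 32 members, 37.6% of those in root and 30.8% of those in stem. Reads in no further organ were found for 46 of the members in stem, 35 of those in root and 23 of those in SAM. Both root libraries had reads of 27 members and both stem libraries of 29, while at least 2 of the 3 SAM libraries had reads of 12 members and all 3 of 1 member.

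Member shares outside leaf were low. SAM libraries averaged 0.150% ± 0.0680 of their circRNA reads (SD, n = 3). Root libraries averaged 0.530% ± 0.0942 and stem libraries 0.368% ± 0.0151 (SD, n = 2 each). The single embryo library had 0.274% (exact interval 0.208% to 0.353%) and the endosperm library 0.188% (0.151% to 0.232%). Each of these shares lay below the lowest leaf library, which had 3.18%, but the leaf shares are raised by the choice of members for their leaf reads, so this is a description. The libraries concerned held 21556 to 64394 circRNA reads, beside 17289 to 38740 in the leaf libraries.

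Individual members departed from this order. Pooled over the 9 libraries, the signal outside leaf was above the pooled leaf signal for 18 members, which had 4 to 61 leaf reads. The largest ratio was that of ZmCirc048311, named after its values were seen, at 2.99 (outside leaf over leaf), with 5 reads in leaf and 17 outside it. ZmCirc003350, read in 6 of the 9 libraries, had 12 reads in the internode and 14 in the stem, 3 and 2 in SAM at V4 and V3, and 1 each in the primary root at V1 and the embryo. In leaf it had 5 reads in the husk leaf and 0 to 2 in every other library, so the stem libraries were its highest.

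ZmCirc037397 was the member with the highest stem signal. It had 30 reads in the internode and 24 in the stem, 14 in SAM at V3, 20 in SAM at V4 and none in SAM at V1 or in root. Its leaf reads were 30 in the husk leaf, 12 (L) and 8 (N) in the base, 6 in the ear leaf, 4 in the topmost leaf with L and 1 in the third leaf. It was thus read in the husk and the base and not in the tip or the first leaf.

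ZmCirc060214 was the highest member in SAM, but from 1 library: it had 35 reads in SAM at V1 and 0 in SAM at V3 and V4. It also had 12 reads in the primary root at 6DAS, 16 in the endosperm and 16 in the husk leaf. ZmCirc059401 was the highest in the endosperm together with it, with 16 reads, and had no read in the other 8 libraries outside leaf. ZmCirc033672 was highest in the embryo, with 12 reads there, 7 in the primary root at 6DAS and at most 4 in any leaf library. ZmCirc060999, at 551 ± 324 (SD, n = 11) in leaf, and ZmCirc005736, at 96.4 ± 110.2 (SD, n = 11), were read in 6 of the 9 libraries each.

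Primary root, stem and SAM were compared in a fit of their 7 libraries, without leaf and inflorescence, where the choice of members fixed the values. The filter of reads in at least 2 of these libraries left 90 of the 367 members, and the members that passed had to be present in these organs. Between root and SAM limma called 1 member, higher in root, against 23 of 10625 circRNAs (0.216%). This member, ZmCirc052140, had 16 reads in the primary root at 6DAS and 15 at V1, against 0 in all 3 SAM libraries. It passed the filter only through both root libraries, so any member that passed in this way had to lie higher in root, and its direction is no finding of the test. Its pooled root signal was at least 12.9-fold higher than the limit for SAM (limma log2 difference 4.21, SE 0.557, adjusted p = 0.0477). Over its 10 alternatives the adjusted p ran from 0.00065 to 0.124 and was under 0.05 in 4. It was 0.123 without SAM at V3, 0.0777 without SAM at V1, 0.124 without SAM at V4, 0.0655 without the internode and 0.0608 without the stem. Without either root library, or with a filter of 4 libraries, the circRNA was not tested. In leaf it had 23 of its 35 reads in the topmost leaf with L, 8 in the husk leaf, 1 in the base with L and 3 in the base with N.

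EdgeR called 2 members between root and SAM, against 32 circRNAs (0.301%), and ZmCirc052140 was not among them (edgeR adjusted p = 0.0713). ZmCirc021703 had 17 and 30 reads in the primary root at 6DAS and V1, against 1 in SAM at V3 and 0 in the other SAM libraries (edgeR adjusted p = 0.0303, limma adjusted p = 0.0586). ZmCirc023981, named after its values were seen, had 10 and 32 reads in the same roots and none in SAM, at least 17.5-fold higher (edgeR adjusted p = 0.0470, limma adjusted p = 0.0575). It also had 12 reads in the internode and 23 in the stem, so it was present in both organs.

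Between stem and SAM limma called 0 members and 0 of 10625 circRNAs (0.0%), with 23 members and 1451 circRNAs at an unadjusted p under 0.05, and edgeR called 0 members and 5 circRNAs (0.0471%). Between root and stem limma called 0 members, against 5 circRNAs (0.0471%), with 34 members and 1825 circRNAs at an unadjusted p under 0.05. EdgeR called 1 member there, against 33 circRNAs (0.311%). This was ZmCirc021703, which had no read in the internode or the stem and was at least 11.9-fold higher in root (edgeR adjusted p = 0.0470, limma adjusted p = 0.0721). Outside root ZmCirc021703 was above 0 in 1 library of this fit, so it passed the filter of 2 libraries only through root, and its direction is no finding of the test against stem or against SAM. Its signal averaged 716 ± 165 over the root libraries (SD, n = 2) and 698 ± 519 over the leaf libraries (SD, n = 11), so root lay within the range of the leaf libraries.

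**Figure D5:**
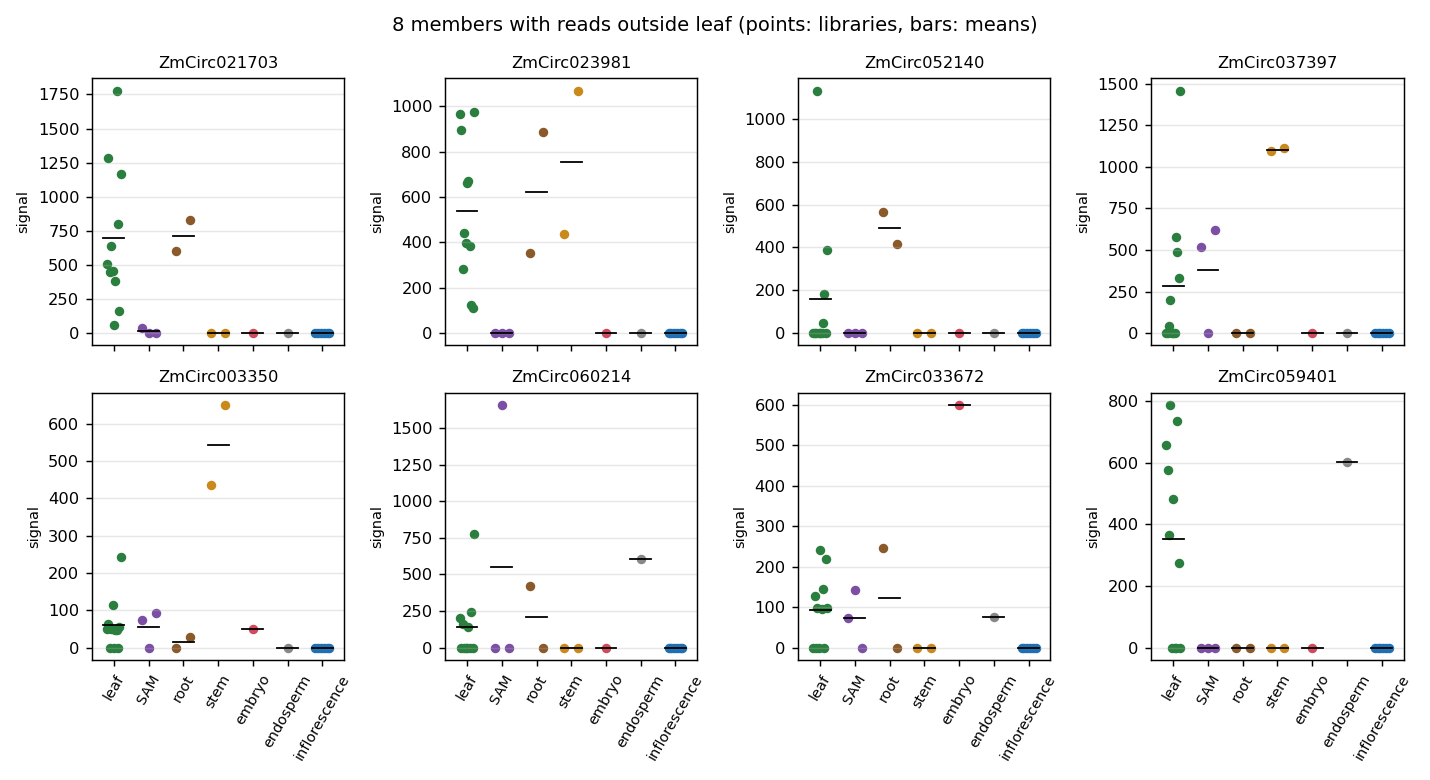
Deposited signal (vertical axes, linear, each with its own scale) of 8 members in the libraries of 7 organ classes (horizontal axes), with points for libraries and black bars for the mean of a class. ZmCirc021703 and ZmCirc052140 are above 0 in both root libraries, ZmCirc037397 and ZmCirc003350 in both stem libraries, and ZmCirc060214 in 1 of 3 SAM libraries.

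The identifiers carry a running number, whose order has no stated meaning in the labels or files. Members lay near each other in this order. The next number also belonged to a member for 27 members (7.36%), whereas members are 0.593% of all circRNAs. In the compared set, which is 5.37% of all circRNAs, the corresponding share was 11.6%. These shares are given as a description. Within 5 numbers of another member lay 90 members (24.5%), in 33 groups, of which 12 held 3 members or more. No such count for the compared set or for all circRNAs stands beside this one.

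The numbers from ZmCirc024901 to ZmCirc024930 held 13 members among 30 circRNAs, none of which had an inflorescence read. These 13 members, which include ZmCirc024928, ZmCirc024913, ZmCirc024926 and ZmCirc024906, had 4077 leaf reads, 31.1% of all member reads in leaf, and 1 read in the 9 other libraries. Of the 30 circRNAs 29 had leaf reads. The neighbour ZmCirc024932 differed, with 156 leaf reads in all 11 libraries and 82 inflorescence reads. ZmCirc024910, within the stretch, was read in the third leaf (77 reads) and the topmost leaf with L (47 reads), so it was too narrow to be a member. These and the stretches below were chosen after their values were seen.

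Other stretches had leaf positions of their own. The 5 members from ZmCirc036705 to ZmCirc036717 had 178 leaf reads, with 59.6% of their summed position signal in the base, 3.57% in the tip and 0 in the third leaf. The 3 members from ZmCirc043923 to ZmCirc043928 had 48.9% in the first leaf, 20.9% in the third leaf and 0 in the topmost leaf. The 4 members from ZmCirc041145 to ZmCirc041150 had 37.4% in the first leaf and 2.07% in the husk leaf. Of their 1077 leaf reads ZmCirc041145 held 984, so these shares mostly restate that member. In contrast, the 5 members from ZmCirc061786 to ZmCirc061793 had 42.8% in the husk leaf and none in the base. The files do not say whether circRNAs with close numbers share a gene or junction, so these members are not counted as independent.

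Both limits of the choice were looked at by value. Just outside it, 424 circRNAs had reads in exactly 3 leaf libraries and none in inflorescence. The highest of them, ZmCirc043441, had 33 reads in the ear leaf, 25 in the third leaf and 13 in the topmost leaf with L. A further 117 circRNAs were read in at least 4 leaf libraries and had exactly 1 inflorescence read. The highest of these, ZmCirc009157, was read in all 11 leaf libraries with 155 reads in all, and its single inflorescence read was in the 1cm tassel. ZmCirc041252, named after its values were seen, is next in number to the members ZmCirc041253 to ZmCirc041256. It had 1287 leaf reads and 4 inflorescence reads, so it was left out of the members. Its leaf reads exceeded those of all but 1 member.

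Low counts set how finely absence can be read. Of the 2479 values above 0 in the members, 30.6% were a single read, against 42.0% over all circRNAs. For 233 members the lowest value above 0 was 1 read, for 106 it was 2 and for 28 it was 3 or more. Whether single reads were listed as 0 for some circRNAs was not tested.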

How the data were processed

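Total RNA of each B73 tissue was sequenced for circRNAs in 26 libraries, 1 per tissue. Per the submitters' processing notes, cutadapt 1.9.1, SAMtools 1.9, Bowtie 1.1.2, HISAT, RSEM and StringTie were used with B73 RefGen_v4, without roles. The sources used here do not name the circRNA caller. The deposited table is named CPM by the authors, but 25 of its 26 columns sum to more than CPM can, so it was treated as a deposited signal. Dividing the values of a library by a fixed step gave whole reads for 100% of them within a tolerance of 0.001, 17289 to 107480 reads per library. The step is set by a library number of 15619436 to 36058364, of unstated meaning. The total RNA, ribosome-bound, small RNA and protein pair data carry no circRNA identifiers and were not used here.

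Limma 3.58.1 (R 4.3.3, trended variance) was run on log2(signal + 27.7), for circRNAs above 0 in at least 2 libraries of a fit, and p-values were adjusted by Benjamini-Hochberg over all circRNAs tested. The leaf fit held 8 libraries with position and letter as terms. The other fit held 3 SAM, 2 root and 2 stem libraries. Fold changes on this scale understate changes of low circRNAs, and the p-values reflect differences among tissues, not among plants. Alternatives were edgeR 4.0.16 (quasi-likelihood, TMM) on recovered reads, other pseudocounts (2.77 and 277), no filter, a filter of 4 libraries, scaling to circRNA reads, no replicate block, and leaving out each library. The use of a signal in place of CPM departs from the unit's name. The fits of L against N and of root against SAM were also run on simulated data. Apart from changes put in, these data had the same level of a circRNA in all tissues, unlike the libraries here. The other comparisons were not simulated, and this run is no support for the results.

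The members, lists and tests were chosen with earlier results of these data known. Circular RNAs are named by rule: the highest 10 by mean leaf signal, the 5 in most leaf libraries, the 5 in most other libraries, the highest in each single-library leaf, root, stem, SAM, embryo and endosperm, those called by limma, and those at the limits of the choice. Others are said to be named after their values were seen. No genome sequence or position for these identifiers was used here.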

Additional observations from a re-analysis of the deposited data

Results flagged for a closer look

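Within the 4 libraries of a letter, 8 values of members stood far from the other 3, by Dixon's criterion. These 4 libraries are different leaf positions and not replicates, so a marked value can be a difference between positions. A total of 52 groups were looked at, and those without any spread could not be marked. The criterion marks about 1 in 20 by chance only for continuous values, which these low counts are not. A single value above 0 beside zeros is always marked, however few its reads. Most of these values rest on few reads.

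ZmCirc041145 had a signal of 12484 in the first leaf with N (195 reads), against 2759 to 4011 in the other N libraries. ZmCirc024906 had 1018 in the topmost leaf with N (18 reads) and 0 in the other 3 N libraries. ZmCirc052140 had 1132 in the topmost leaf with L (23 reads), against 0 to 48.1 in the other L libraries, and 183.9 in the base with N (3 reads), against 0 in the other N libraries.

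ZmCirc037397 had 490.5 in the base with N (8 reads) and 0 in the other 3 N libraries. ZmCirc060214 had 202.8 in the first leaf with L (4 reads) and 0 in the other 3 L libraries. ZmCirc003350 had 0 in the tip with L, against 48.1 to 50.7 in the other L libraries, where each value was a single read. ZmCirc005736 had 0 in the base with L, against 181 to 202.8 in the other L libraries.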

How the results depend on the processing

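The number of members depended on the choice itself. It was 791 with at least 3 leaf libraries, 211 with at least 5 and 668 when 1 inflorescence library with reads was allowed. It was 271 when at least 4 of the 7 leaf positions were asked for, and 382 to 495 when 1 inflorescence library was left out. With every library thinned to 17289 reads it was 528, of which 267 are among the 367. In alternatives chosen after seeing the data, thinning the inflorescence libraries alone gave 759, which include all 367 by construction. Thinning the leaf libraries alone gave 267, all of them among the 367 by construction. The direction of both changes was thus fixed in advance. Only their size, from a random draw, describes how far the choice moved with depth.

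Counts of circRNAs called moved with the filter and the tool. Between L and N, where limma called 0, no filter gave 3 and edgeR 4. Between tip and base (0 calls) these gave 22 and 33, and the filter of 4 libraries gave 4. Between first and topmost leaf (0 calls) they gave 52, 58 and 12. Other pseudocounts, the other scaling and leaving out a library gave 0 in all 3 leaf comparisons. Between root and SAM (23 calls) a pseudocount of 2.77 gave 512, one of 277 gave 40, no filter 156, the filter of 4 libraries 171, scaling to circRNA reads 421, and leaving out a library 0 to 39. It was 0 without any single SAM or root library. Between stem and SAM (0 calls) the same settings gave 651, 11, 108, 47 and 538, edgeR gave 5, and leaving out a library 0. Between root and stem (5 calls) they gave 1007, 81, 222, 218 and 850, edgeR gave 33, and leaving out a library 0 to 4. Among the members, the calls of these settings numbered 0 to 2 between L and N, 0 to 5 between tip and base and 0 to 10 between first and topmost leaf. They numbered 0 to 11 between root and SAM, 0 to 14 between stem and SAM and 0 to 24 between root and stem. In these last 3 comparisons the highest counts were reached with the pseudocount of 2.77. They are of 90 members tested, beside 512, 651 and 1007 of 10625 circRNAs. No member named in a test changed direction under any of these settings. Members with no read in the lower group, or that passed the filter only through the higher group, had little or no room to do so. For them the unchanged direction is no support. The cause of the moved counts was not tested.

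The replicate block was the leaf position in the comparison of L with N, and the letter in the comparisons of positions. Without the block 0 circRNAs were called in each of the 3 leaf comparisons. Deviations of the L and N libraries of a position correlated with r of 0.130 (base), 0.187 (first leaf), 0.0700 (tip) and 0.160 (topmost leaf) over 6655 circRNAs, which are not independent, each above the highest r with another position. Whether the L and N libraries of a position share plants is not stated in the labels.

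The low counts limit all of these results: 147 members have fewer than 10 leaf reads, and each tissue has 1 library.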
